A study of Mus musculus with 4 samples.

Results

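A set of 10 transcription factors that set the course of the chondrocyte were followed in rib chondrocytes with and without Senp6. They were the SOX trio (Sox9, Sox5 and Sox6), the RUNX family (Runx1, Runx2 and Runx3) and 4 further regulators (Nkx3-2, Trps1, Mef2c and Zbtb20). They were chosen by name, with earlier results of these data known, and matched by gene symbol, and all 10 were among the 18298 genes with a read in at least 1 library. With these data, 9 of the 10 had enough reads to be tested, and Nkx3-2 did not.

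In cartilage, SOX9 starts the chondrocyte program, and SOX5 and SOX6, which lack a transactivation domain of their own, work beside it on the enhancers of collagen and matrix genes. RUNX proteins bind DNA together with the partner CBFB. RUNX2 and MEF2C drive the later step, in which chondrocytes enlarge, turn on Col10a1 and prepare the matrix for bone, while NKX3-2 is known to hold that step back, TRPS1 to restrain RUNX2 and ZBTB20 to favor terminal differentiation.

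Poly(A) RNA was sequenced from primary rib chondrocytes, the cells released by enzyme digestion from the rib cartilage of E18.5 mouse embryos and grown in culture, at passage P1. All cultures came from mice of the C57BL/6 background and all carried the floxed Senp6 alleles. The control group was Senp6f/f (called WT in the labels, n = 2), and the mutant group was Dermo1-Cre;Senp6f/f (called Mut, n = 2). SENP6 is a protease that takes SUMO2/3 chains off proteins, and the comparison asks how its removal altered gene expression. Dermo1-Cre is expressed from the Twist2 locus in mesenchymal progenitors, so the deletion reaches precursors of cartilage, bone and other connective tissue, and the Cre is present in the mutants and absent in the controls. The labels do not say whether the replicates are separate embryos, litters or pools, so the p-values measure only the spread between these libraries.

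The reads counted on genes numbered 21 to 31 M per library. The 2 controls lay farther apart than the 2 mutants: the distance over log2(RPKM + 1) was 41.0 between the controls and 26.9 between the mutants, and control replicate 2 was closer to mutant replicate 1 (34.6) than to control replicate 1. RPKM is the read count scaled by the gene length and by the total reads of the library. Xist, the RNA of the inactive X chromosome, had 11354 reads in mutant replicate 2 and at most 5 in the other libraries, and 4 Y-linked genes together had 7 reads there and at least 2088 in each of the others, so the mutant cultures differed in sex. Senp6 itself had an RPKM of 10.8 and 18.0 in the controls and of 12.0 and 8.07 in the mutants, which overlapped, with a log2 fold change of -0.56 (SE 0.279, edgeR adjusted p = 0.410) that lay between -0.89 and -0.20 when single libraries were left out. Reads on the undeleted exons are counted too, so this whole-gene value does not measure the deletion. The defining RNAs of chondrocytes were present, and all 20 genes of a cartilage list had enough reads to be tested. Col2a1, the main collagen of cartilage, had an RPKM of 334 to 659. The gene with the most reads in every library was Col1a1, a chain of collagen I, with 1.56% to 3.42% of the counted reads.

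The 10 factors spanned a wide range of RNA levels. By the control mean, Sox9 was first with an RPKM of 38.5 ± 10.1 (SD, n = 2), followed by Runx1 (21.8 ± 6.38), Runx2 (13.8 ± 0.633) and Trps1 (7.59 ± 0.831). Sox9 was above Runx1, Runx1 above Runx2 and Runx2 above Trps1 in each of the 4 libraries. Zbtb20, Runx3, Mef2c, Sox6 and Sox5 followed between 4.84 and 1.94, and within this run each gene was above the next in 3 of the 4 libraries only, so that these neighbors did not differ beyond their spread. Nkx3-2 was last, with 1 to 11 reads per library.

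**Figure D1:**
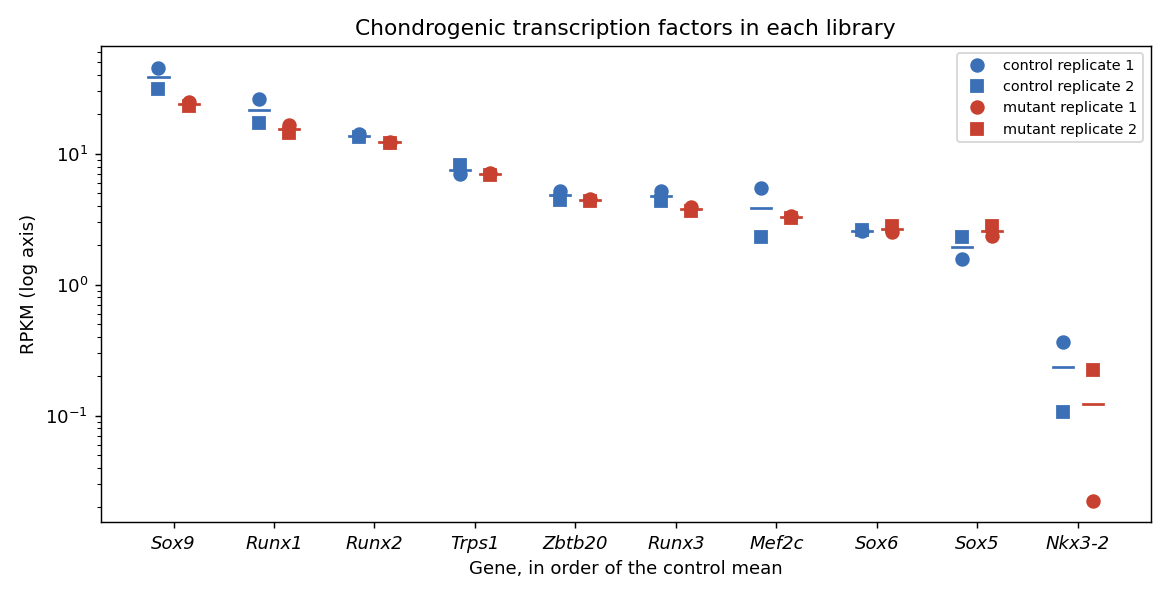
RPKM on a log axis of the 10 factors in each of the 4 libraries, ordered by the control mean; blue points are controls, red points are mutants and short lines are group means. Sox9 and the 3 RUNX genes have both mutants below both controls, Sox5 has both mutants above, and the 5 others overlap.

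No factor passed the test between the genotypes. The quasi-likelihood test of edgeR at an adjusted p of 0.05 called 0 of the 9 tested factors, and 0% of all 14123 tested genes, in either direction. At an unadjusted p under 0.05 it held 2199 genes, or 15.6% of those tested, among them 1 of the 9 factors (Sox9), and the smallest adjusted p of any gene was 0.0512. DESeq2, the other count test, called 1 factor lower (Sox9) beside 1.86% of all genes lower and 3.07% higher. With 2 libraries against 2, the smallest p that an exact permutation test allows is 0.333.

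Counted without a test, 4 factors had both mutants below both controls by RPKM (Sox9, Runx1, Runx2 and Runx3), against 19.2% of all tested genes. Sox5 alone had both mutants above both controls, against 28.3% of all tested genes, and the 4 other tested factors overlapped. The median log2 fold change of the 9 was -0.22, and that of all tested genes 0.01.

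The calls depended on which libraries entered the fit. Without control replicate 2, edgeR called 4 factors lower (Sox9, Runx1, Runx3 and Mef2c) beside 10.6% of all tested genes, and 1 higher (Sox5) beside 9.42%, with control replicate 1 as the lone control. Without any other single library it called 0 factors, beside 3.72% of all genes higher and 1.06% lower without control replicate 1, 2.36% and 0.651% without mutant replicate 1, and 0.68% and 0.333% without mutant replicate 2. It called 0 factors without a filter on low counts (1.23% of all genes higher and 0.333% lower) and with the replicate number in the model (0.595% and 0.234%).

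**Figure D2:**
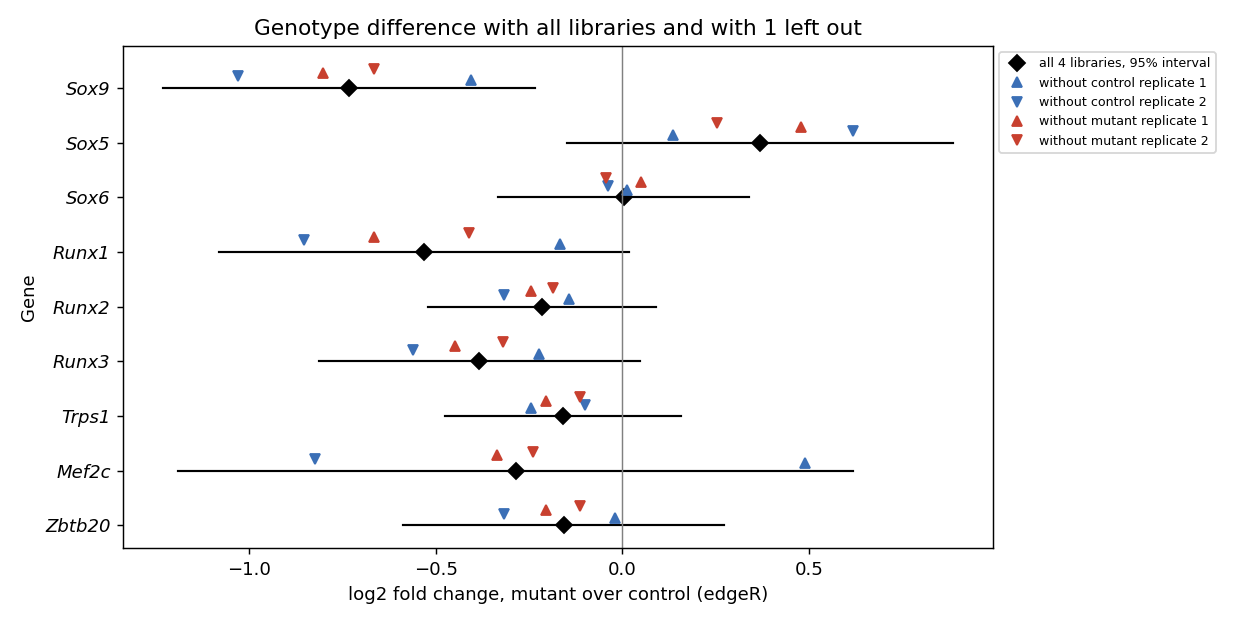
Log2 fold change of mutant over control by edgeR for the 9 tested factors; diamonds are the fit to all 4 libraries with its 95% interval, and triangles are the fits that leave out 1 library. Sox9 is the single factor whose interval (-1.23 to -0.23) lies on 1 side of 0, Mef2c runs from -0.82 to 0.49 across the triangles, and the Sox6 values stay next to 0.

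Sox9, the master regulator of the chondrocyte, had an RPKM of 45.6 and 31.3 in the controls and of 24.7 and 23.1 in the mutants. Both mutants were below both controls, and the mutants lay closer together (0.14 apart in log2 of the TMM-scaled counts) than the controls (0.60 apart on that scale). The group means were 38.5 ± 10.1 and 23.9 ± 1.17 (SD, n = 2 each), so the control mean was 1.61-fold higher. The log2 fold change was -0.73 (SE 0.208, 95% interval -1.23 to -0.23), with an unadjusted p of 0.0108 and an adjusted p of 0.173 by edgeR and an adjusted p of 0.0250 by DESeq2. The size rested partly on control replicate 1: without it the log2 fold change was -0.41 and did not pass (edgeR adjusted p = 0.106), and without control replicate 2 it was -1.03 and passed (edgeR adjusted p = 0.000195). Without mutant replicate 2, the culture with the Xist reads, it was -0.67. Sox9 lies at chr11:112782224-112787760 on the plus strand of GRCm38.

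The other SOX trio genes were not lower in the mutants. Sox5 had an RPKM of 1.56 and 2.31 in the controls and of 2.34 and 2.81 in the mutants, so the groups were apart by a narrow gap between control replicate 2 and mutant replicate 1. Its log2 fold change was 0.37 (SE 0.216, 95% interval -0.15 to 0.89, edgeR adjusted p = 0.484) and 0.13 without control replicate 1. Sox6 had an RPKM of 2.56 and 2.61 in the controls and of 2.55 and 2.79 in the mutants, and the groups overlapped. Its log2 fold change was 0.0031 (SE 0.140, edgeR adjusted p = 0.993), with a 95% interval of -0.33 to 0.34 that bounds the difference on either side. Sox5 lies at chr6:143828425-144781977 and Sox6 at chr7:115470872-116038796, both on the minus strand. The antisense gene Sox5os1 shares 9.25% of the exon bases of Sox5. The counts do not give the strand of the reads, so whether reads of both transcripts were told apart there is not known.

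The balance within the trio therefore differed between the libraries. For every 100 units of Sox9 RPKM, Sox5 and Sox6 together had 9.03 and 15.7 in the controls and 19.8 and 24.3 in the mutants. Both mutants were above both controls in this ratio, which was described without a test. Sox6 over Sox5 was 1.64 and 1.13 in the controls and 1.09 and 0.994 in the mutants. Control replicate 2 was therefore next to the mutants in this ratio, and control replicate 1 stood apart.

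The cartilage genes that the trio is known or thought to act on were lower in the mutants, with a larger median difference than that of Sox9. In a list of 20 such genes, all 20 had a negative log2 fold change, with a median of -1.52, and 19 had both mutants below both controls, against 19.2% of all tested genes. An unadjusted p under 0.05 with a lower level was found for 16 of the 20, against 6.28% of all genes, and the smallest adjusted p was 0.0739, so edgeR called none of them while DESeq2 called 15 lower, against 1.86% of all genes. The list was chosen with results of these data known, so its direction is no independent evidence. As RNA of whole cultures was measured, fewer cells of a type and less RNA per cell cannot be told apart.

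A chain of collagen IX and a chain of collagen XI showed wide gaps. Col9a1, a chain of the collagen IX on the fibril surface, had an RPKM of 32.2 and 31.7 in the controls and of 7.29 and 11.1 in the mutants, with a log2 fold change of -1.85 (SE 0.203, edgeR adjusted p = 0.0739). Col11a2, a chain of the collagen XI in the fibril core, had 43.8 and 30.8 in the controls and 7.10 and 10.6 in the mutants, with -2.12 (SE 0.256, edgeR adjusted p = 0.0739). In both genes the mutants were far below the controls and mutant replicate 1 was the lowest library. Lect1, which encodes the vessel inhibitor chondromodulin, was also lowest in mutant replicate 1. It had 20.8 and 29.3 in the controls and 5.39 and 8.85 in the mutants (log2 fold change -1.86, SE 0.266, edgeR adjusted p = 0.0789). DESeq2 called all 3 genes lower.

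The genes of highest level in the list differed less. Col2a1 had an RPKM of 609 and 659 in the controls and of 334 and 445 in the mutants, with a log2 fold change of -0.75 (SE 0.164, edgeR adjusted p = 0.114, DESeq2 adjusted p = 0.00119). Col11a1, the other main chain of collagen XI, had 139 and 127 in the controls and 97.0 and 89.0 in the mutants (log2 fold change -0.56, SE 0.138, edgeR adjusted p = 0.137). The mutants were below the controls in both. For Fmod, a small proteoglycan that binds collagen, control replicate 2 (168) was next to the mutants (151 and 166) and control replicate 1 (309) stood apart. Its log2 fold change of -0.64 became -0.10 without control replicate 1. At the ends of the list, named after their values were seen, were Matn1 at -3.18 and Papss2 at -0.28, and Cytl1 was the gene whose groups overlapped.

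**Figure D3:**
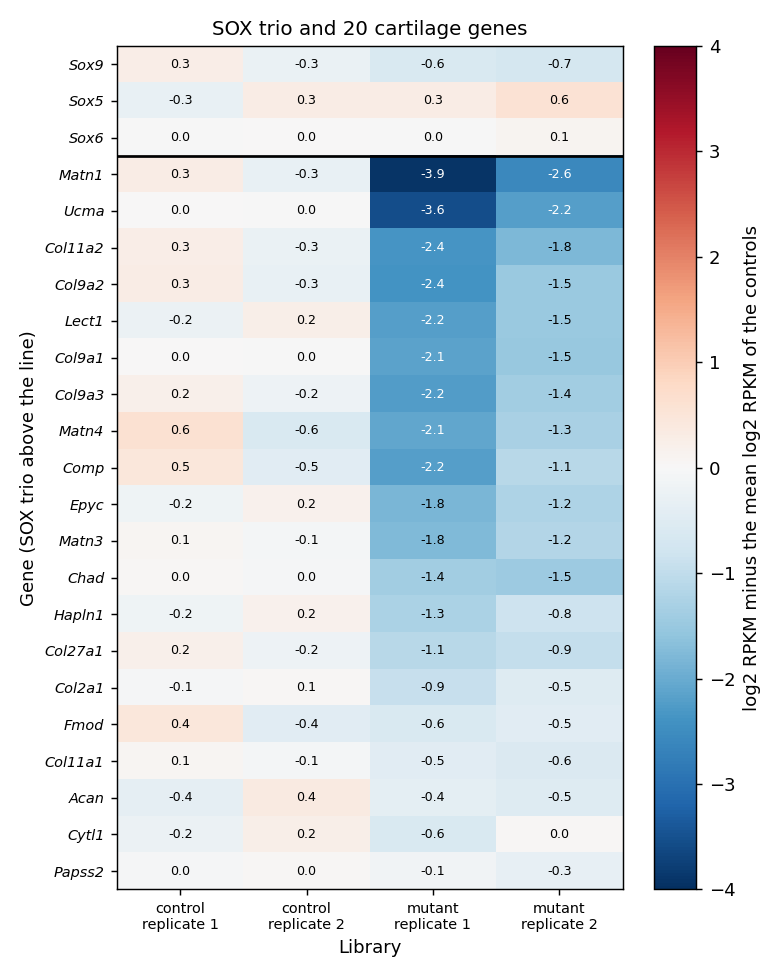
Log2 RPKM of each library minus the mean of the controls, for the SOX trio (above the line) and the 20 cartilage genes ordered by their fold change; blue is below and red is above the controls, on a color scale from -4 to 4. The mutant columns are blue for 19 of the 20 genes in both mutants, while Sox5 is red and Sox6 near white.

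Set against Sox9, Col9a1 and Col11a2, the genes of smallest p in the list, did not keep a constant ratio. The genes of highest level differed by about as much as Sox9 (log2 fold change -0.73), with -0.75 for Col2a1, -0.56 for Col11a1 and -0.64 for Fmod. Their ratios to Sox9 were not taken. Col9a1 had 0.707 and 1.01 units of RPKM per unit of Sox9 in the controls and 0.295 and 0.480 in the mutants. Col11a2 had 0.959 and 0.984 in the controls and 0.287 and 0.461 in the mutants. Both ratios were lower in both mutants than in both controls, a description without a test. As both genes were picked for the smallest p in these same libraries, lower ratios were likely from the choice alone. They say nothing about the rest of the list.

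The 3 RUNX genes had both mutants below both controls, as did 19.2% of all tested genes, by differences that did not pass the test. Runx1, a regulator of early chondrocytes and blood, had an RPKM of 26.3 and 17.3 in the controls and of 16.7 and 14.4 in the mutants, so control replicate 2 was just above mutant replicate 1. The log2 fold change was -0.53 (SE 0.229, 95% interval -1.08 to 0.02, edgeR adjusted p = 0.336), and it was -0.17 without control replicate 1. Runx2, the regulator of hypertrophy and bone, had 14.2 and 13.3 in the controls and 12.3 and 12.1 in the mutants, a tight set with a log2 fold change of -0.22 (SE 0.128, 95% interval -0.52 to 0.09, edgeR adjusted p = 0.489). Leaving out single libraries moved the Runx2 value between -0.32 and -0.14. Runx3, which shares roles in hypertrophy with Runx2, had 5.21 and 4.36 in the controls and 3.90 and 3.66 in the mutants, with a log2 fold change of -0.38 (SE 0.180, 95% interval -0.81 to 0.05, edgeR adjusted p = 0.375) that was -0.22 without control replicate 1.

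Within the family, the share of Runx3 varied little among the 4 libraries. The RPKM sum of the 3 genes was 45.8 and 35 in the controls and 33.0 and 30.2 in the mutants. Runx3 made up 11.4% and 12.5% of that sum in the controls and 11.8% and 12.1% in the mutants. Runx1 over Runx2 was 1.85 and 1.29 in the controls and 1.36 and 1.19 in the mutants, so the groups overlapped and control replicate 1 was the highest. Runx1 lies at chr16:92601466-92826149 and Runx2 at chr17:44495987-44814797 on the minus strand, and Runx3 at chr4:135120652-135177990 on the plus strand. Runx2os1, transcribed against Runx2, shares 5.87% of the exon bases of Runx2.

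The promoters of the factors were searched for the core letters that each family binds. Windows of the 250 bases before each RefSeq start (GRCm38.p6) were read on both strands for TGTGGT or its reverse ACCACA (RUNX) and for AACAAT or its reverse ATTGTT (SOX), which do not overlap each other. The RUNX letters were in 14% and the SOX letters in 9.4% of all 32851 windows. Of the 10 factors, 8 had a window (not Sox9 and Trps1), and among their 17 windows 5 held the RUNX letters (29.4%) and 1 the SOX letters (5.9%). The windows of Runx2 and Runx3 are shown because these RUNX genes hold the RUNX letters themselves, that of Sox6 because it holds both motifs, and those of Mmp13 and Spp1 because these RUNX target genes had differences of opposite sign. Capitals mark the motif letters, and each window is written 5′ to 3′ and ends at the base before the start.
Runx2, chr17:44814628-44814877, minus strand: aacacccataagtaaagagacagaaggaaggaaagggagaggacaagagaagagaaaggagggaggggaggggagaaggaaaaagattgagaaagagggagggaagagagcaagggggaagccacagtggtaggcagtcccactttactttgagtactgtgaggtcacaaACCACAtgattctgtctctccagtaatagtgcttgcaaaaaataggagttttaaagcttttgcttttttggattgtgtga
Runx3, chr4:135120395-135120644, plus strand: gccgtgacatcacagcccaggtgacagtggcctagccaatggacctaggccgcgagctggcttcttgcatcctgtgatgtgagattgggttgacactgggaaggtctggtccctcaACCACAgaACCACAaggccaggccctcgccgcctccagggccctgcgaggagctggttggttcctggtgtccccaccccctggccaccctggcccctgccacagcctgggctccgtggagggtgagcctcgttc
Sox6, chr7:115824711-115824960, minus strand: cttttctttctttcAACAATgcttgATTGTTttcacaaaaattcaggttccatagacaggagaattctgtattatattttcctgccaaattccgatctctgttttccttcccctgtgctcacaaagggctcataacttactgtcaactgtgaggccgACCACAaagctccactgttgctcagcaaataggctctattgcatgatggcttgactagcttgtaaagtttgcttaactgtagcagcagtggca
Mmp13, chr9:7272264-7272513, plus strand: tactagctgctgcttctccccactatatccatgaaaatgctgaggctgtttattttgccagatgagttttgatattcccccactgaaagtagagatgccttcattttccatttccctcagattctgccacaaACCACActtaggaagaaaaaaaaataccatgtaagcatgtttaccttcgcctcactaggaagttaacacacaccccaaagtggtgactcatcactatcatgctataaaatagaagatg
Spp1, chr5:104434861-104435110, plus strand: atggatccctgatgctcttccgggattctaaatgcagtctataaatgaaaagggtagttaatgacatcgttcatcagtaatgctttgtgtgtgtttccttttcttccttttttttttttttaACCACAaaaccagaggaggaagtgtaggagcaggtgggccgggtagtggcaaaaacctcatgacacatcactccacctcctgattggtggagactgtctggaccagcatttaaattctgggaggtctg
The RUNX letters began 80 bases before the start of Runx2, 134 and 126 bases before that of Runx3, 118 before Mmp13 and 128 before Spp1. Only windows with a match were printed. A further window of Runx3 (chr4:135152295-135152544) and a further window of Spp1 (chr5:104435942-104436191) held neither motif. The windows of Runx1 (chr16:92826075-92826324 and chr16:92697330-92697579) held neither motif as well. The other windows of Sox6 held no SOX letters. In the hypertrophy and mineralization list, 3 of 15 windows held the RUNX letters (20%), against 14% of all windows. The share was 19% in the cartilage list (4 of 21 windows) and 0% in the partners and relatives of the factors. For markers of other cells it was 0% for endothelial, 25% for skeletal muscle and 37.5% for macrophage genes, with at most 8 windows each. It therefore did not set the hypertrophy list apart. The SOX letters were in 3 of 21 cartilage windows (14.3%), against 9.4% of all windows. A match is a description of the letters and no evidence of binding.

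Genes that RUNX and MEF2 proteins act on in hypertrophy and mineralization split in direction. Of a list of 13, 10 were tested and none was called by edgeR. At an unadjusted p under 0.05, 5 were lower, against 6.28% of all genes, and 1 was higher, against 9.29%. Both mutants were below both controls in 7, against 19.2% of all tested genes, and above in 2, against 28.3%. The median log2 fold change was -0.82, and it became -0.44 when control replicate 1 was left out and -1.28 when control replicate 2 was. DESeq2 called 2 lower, against 1.86% of all genes.

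Genes of mineralization were among the lower ones. Alpl, the phosphatase that frees phosphate for mineral, had an RPKM of 90.1 and 45.7 in the controls and of 11.6 and 22.4 in the mutants, with a log2 fold change of -2.06 (SE 0.411, edgeR adjusted p = 0.0985). Sp7, the osteoblast factor that acts after Runx2, had 11 and 7.29 in the controls and 2.90 and 5.89 in the mutants, with -1.11 (SE 0.362, edgeR adjusted p = 0.218), which ran from -1.68 without mutant replicate 2 to -0.70 without mutant replicate 1. These were the 2 genes that DESeq2 called, with adjusted p of 0.0413 and 0.0403. Panx3, a channel of prehypertrophic cells, was low in every library, with 0.756 and 0.486 in the controls and 0.179 and 0.155 in the mutants (log2 fold change -1.92, SE 0.455, edgeR adjusted p = 0.126).

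The RUNX targets with printed windows had differences of opposite sign, and neither passed the test. Mmp13, the collagenase of terminal hypertrophy, had an RPKM of 48.4 and 55.3 in the controls and of 27.4 and 47.5 in the mutants, with a log2 fold change of -0.52 (SE 0.242, edgeR adjusted p = 0.374). Spp1, the matrix protein osteopontin, had 310 and 468 in the controls and 479 and 600 in the mutants, with 0.43 (SE 0.206, edgeR adjusted p = 0.383). In each gene the groups were apart by a narrow gap, between control replicate 1 and mutant replicate 2 for Mmp13 and between control replicate 2 and mutant replicate 1 for Spp1. Leaving out single libraries moved Mmp13 between -0.94 (without mutant replicate 2) and -0.19 (without mutant replicate 1), and Spp1 between 0.18 (without control replicate 1) and 0.70 (without control replicate 2). Levels ranged widely within the list. Col10a1, the collagen of hypertrophic cells, had 1.47 and 2.21 in the controls and 1.76 and 4.24 in the mutants, which overlapped (log2 fold change 0.65, SE 0.421, edgeR adjusted p = 0.527). Its value turned to -0.09 without mutant replicate 2 and was 1.15 without mutant replicate 1. Ihh had 0 to 3 reads in every library, too few for a test. Col10a1 and Ihh were named after their values were seen.

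**Figure D4:**
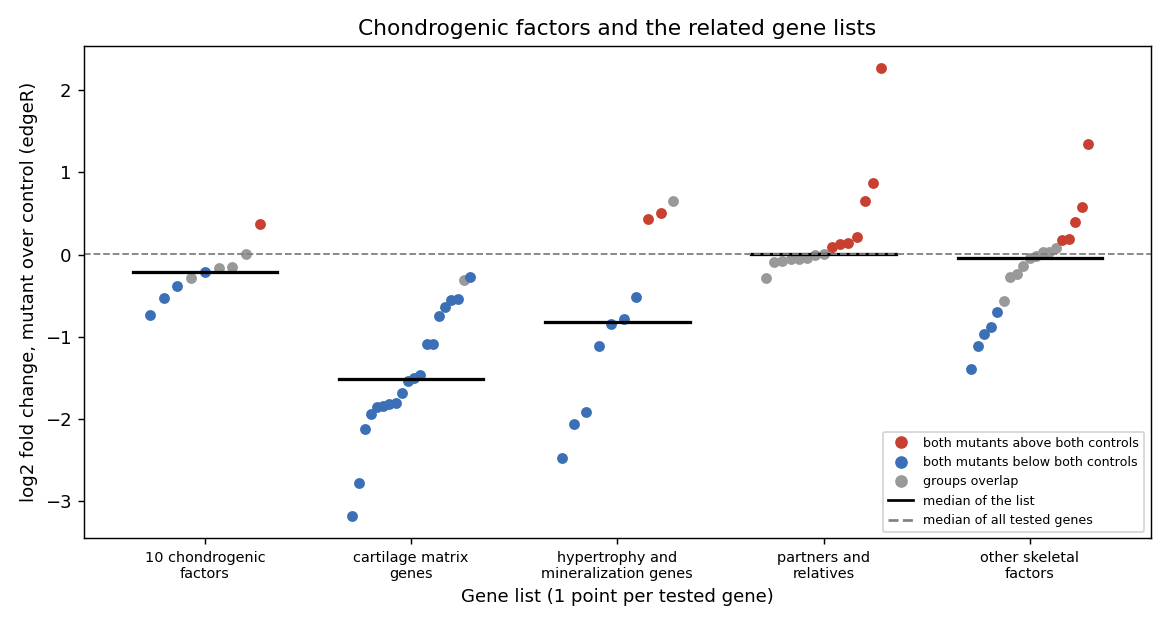
Log2 fold change of mutant over control by edgeR, 1 point per tested gene, for the chondrogenic factors and 4 related lists; red and blue points have both mutants above or below both controls, grey points overlap, black lines are list medians and the dashed line is the median of all tested genes. The cartilage genes lie lowest (median -1.52), the hypertrophy and mineralization genes spread on both sides of 0 (median -0.82), and the factors lie between -0.73 and 0.37.

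The regulators of hypertrophy outside the RUNX family overlapped between the groups. Mef2c had an RPKM of 5.44 and 2.32 in the controls and of 3.36 and 3.22 in the mutants, so both mutants lay between the controls. The log2 fold change of -0.29 (SE 0.377, 95% interval -1.19 to 0.62, edgeR adjusted p = 0.779) carried the widest interval of the factors and was set by which control was kept. It was 0.49 (edgeR adjusted p = 0.118) without control replicate 1 and -0.82 (edgeR adjusted p = 0.00171) without control replicate 2. Mef2c lies at chr13:83504034-83667080 on the plus strand.

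Trps1, a GATA-type repressor, had an RPKM of 7.0 and 8.18 in the controls and of 7.12 and 6.86 in the mutants. These overlapped, although both mutants were below both controls once the libraries were scaled by TMM, the size factors of edgeR. The log2 fold change was -0.16 (SE 0.131, 95% interval -0.47 to 0.16, edgeR adjusted p = 0.628). Zbtb20, a zinc finger repressor, had 5.20 and 4.47 in the controls and 4.55 and 4.39 in the mutants, with the same log2 fold change of -0.16 (SE 0.180, 95% interval -0.59 to 0.27, edgeR adjusted p = 0.735). It became -0.02 when control replicate 1 was left out and -0.32 when control replicate 2 was. The gene length in the tables was 3156 bases for Zbtb20, while its longest GENCODE transcript has 26901, so its RPKM depends on which exons were counted and its rank among the factors is uncertain. Trps1 lies at chr15:50654752-50890463 on the minus strand and Zbtb20 at chr16:42875881-43642602 on the plus strand.

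Nkx3-2, a homeobox repressor that keeps chondrocytes immature, was barely read. It had 11 and 4 reads in the controls and 1 and 9 in the mutants, an RPKM of 0.364 and 0.106 against 0.0225 and 0.222. The groups overlapped and the gene did not reach 10 reads in 2 libraries, so it was not tested, and a difference was not detectable at this depth. Nkx3-2 lies at chr5:41761483-41764501 on the minus strand.

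Among partners of the factors, Sox10 and Sox11 had the largest differences. Of 15 tested partners and relatives of 17, edgeR called none, 2 were higher at an unadjusted p under 0.05 (Sox10 and Sox11), against 9.29% of all genes, and 7 had both mutants above both controls, against 28.3% of all tested genes. Sox11, a SOXC factor of progenitors, had an RPKM of 1.89 and 1.76 in the controls and of 3.46 and 3.41 in the mutants, with little spread within the groups and a log2 fold change of 0.87 (SE 0.148, edgeR adjusted p = 0.0873, DESeq2 adjusted p = 0.00255). Sox10, a SOXE relative of Sox9 known from neural crest, glia and melanocytes, had 0.368 and 0.240 in the controls and 1.11 and 1.91 in the mutants, with 2.27 (SE 0.423, edgeR adjusted p = 0.0917, DESeq2 adjusted p = 0.00284). Both genes stayed above the controls in every fit that left out 1 library, between 0.77 and 0.95 for Sox11 and between 1.84 and 2.62 for Sox10.

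The partners of RUNX and MEF2 proteins showed small differences that did not pass the test. Cbfb, the partner that RUNX proteins need to bind DNA well, had an RPKM of 32.8 and 36.7 in the controls and of 40.6 and 38.2 in the mutants (log2 fold change 0.14, SE 0.127, edgeR adjusted p = 0.659). Hdac7, a class IIa histone deacetylase that binds MEF2, had 32.5 and 27.8 in the controls and 31.0 and 28.9 in the mutants, which overlapped (log2 fold change -0.05, SE 0.147). Sox4, the SOXC factor of highest level, overlapped with 86.1 and 65.7 against 76.5 and 81.5 (log2 fold change 0.01, SE 0.171), and Sox12 overlapped as well (-0.29, SE 0.177). The values of Hdac7 and Sox4 changed sign when single libraries were left out, between -0.22 and 0.09 for Hdac7 and between -0.22 and 0.25 for Sox4, and Sox12 was -0.04 without control replicate 1.

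Of the other skeletal transcription factors, none passed the test of edgeR among 19 tested in a list of 22. At an unadjusted p under 0.05, 4 were lower, against 6.28% of all genes, and 2 higher, against 9.29%, and the median log2 fold change was -0.04. Pax1, a factor of the sclerotome from which ribs arise, had an RPKM of 9.63 and 8.48 in the controls and of 2.48 and 4.67 in the mutants, with a log2 fold change of -1.39 (SE 0.294, edgeR adjusted p = 0.108, DESeq2 adjusted p = 0.000609). Of the hedgehog factors, Gli1, itself a target of the pathway, had 0.715 and 1.02 in the controls and 0.441 and 0.387 in the mutants (log2 fold change -1.11, SE 0.327, edgeR adjusted p = 0.184). Gli2 had 5.56 and 4.8 in the controls and 7.84 and 8.07 in the mutants (0.57, SE 0.147, edgeR adjusted p = 0.144), and Gli3, named after its values were seen, overlapped (0.03, SE 0.143). Twist1, an inhibitor of RUNX2, had 63.6 and 40.7 in the controls and 33.9 and 32.7 in the mutants (log2 fold change -0.70, SE 0.230, edgeR adjusted p = 0.222), with -0.31 without control replicate 1 and -1.03 without control replicate 2. The mesenchymal factor Prrx1 and the stress factor Atf4, the other factors of highest level, had log2 fold changes of 0.19 (SE 0.12) and -0.01 (SE 0.144).

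Markers of other cells also differed between the libraries. The summed RPKM of 11 skeletal muscle genes was 100.1 and 33.8 in the controls and 163 and 185 in the mutants, with both mutants above both controls in 7, against 28.3% of all tested genes, and overlap in 4. None of the 11 was at 0 in any library. Acta1, the skeletal muscle actin, had 38.6 and 11.9 in the controls and 58.9 and 65.5 in the mutants, and Des, a muscle filament protein, had 16.9 and 10.5 in the controls and 42.6 and 41.9 in the mutants. The macrophage list summed to 20.9 and 17.5 in the controls and to 8.85 and 13.4 in the mutants. Of its 8 tested genes, 7 had both mutants below both controls, against 19.2% of all tested genes, and 1 had both above, against 28.3%. The sum leaned on Lyz2, a lysozyme, with 11.1 and 7.85 in the controls and 2.53 and 4.76 in the mutants, while Cd14, a receptor of macrophages, was the gene above the controls, with 2.22 and 2.96 in the controls and 3.25 and 4.56 in the mutants. The part of these cells in the results for the factors was not tested.

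Markers of tissues beside rib cartilage were also read. As RNA of whole cultures was measured, they do not show whether other cells or the chondrocytes made these RNAs. Fibroblast and perichondrium markers summed to 12905 and 8920 in the controls and to 8991 and 6606 in the mutants, mostly from Col1a1 and Col1a2, and the groups overlapped. In this list 6 of 10 had both mutants below both controls, against 19.2% of all tested genes, 1 had both above, against 28.3%, and the median log2 fold change was -0.62. Osteoblast markers summed to 7336 and 4986 in the controls and to 4837 and 3332 in the mutants, with Bglap, a late osteoblast gene, at 0 to 3 reads. Both mutants were below both controls in that sum, which was mostly Col1a1. Of the 4 tested osteoblast genes, 3 had both mutants below both controls, against 19.2% of all tested genes, and 1 had both above, against 28.3%. Ibsp, a mineral-binding protein of bone, had 70.7 and 16.7 in the controls and 4.62 and 11.8 in the mutants. Endothelial sums were 0.901 to 1.57 over all libraries. The receptor Kdr had 0.131 and 0.238 in the controls and 0.390 and 0.570 in the mutants, and the receptor Tek had 0.470 and 0.288 in the controls and 0.111 and 0.122 in the mutants, and neither passed the test. Red blood cell sums were 0.05 to 0.364, with 1 to 5 reads of Alas2 and 0 to 2 of Hba-a1. Whether cells of these types were present and bore on the RUNX values, which did not pass the test, was not tested.

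**Figure D5:**
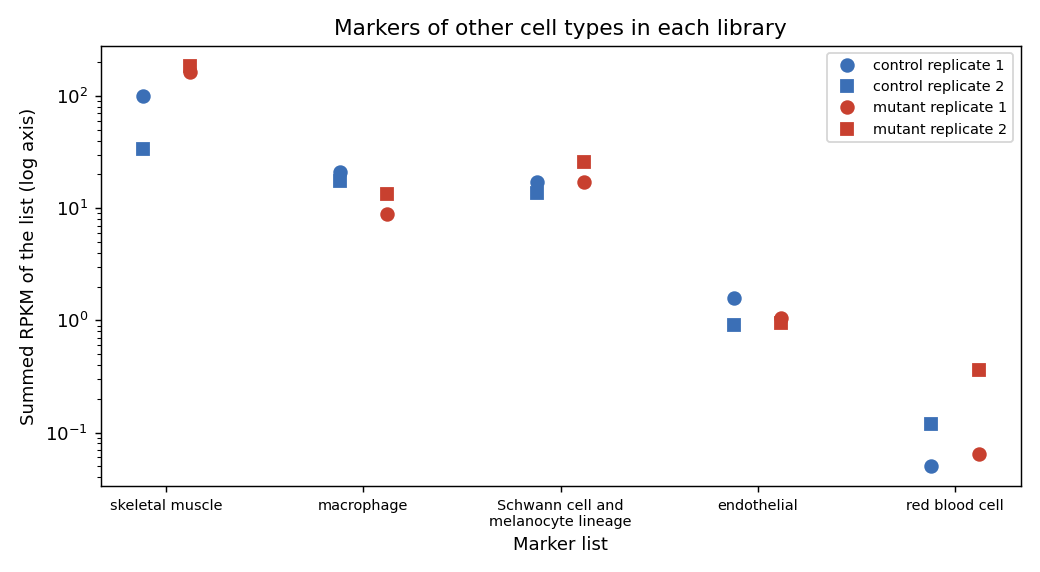
Summed RPKM on a log axis of 5 marker lists in each library; blue points are controls and red points are mutants. Muscle sums are highest in the mutants (163 and 185), macrophage sums are highest in the controls (20.9 and 17.5), Schwann cell and melanocyte sums (a list drawn up after the values of Sox10 were seen) lie between 13.6 and 25.7, and endothelial and red blood cell sums are low in all libraries.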

How the data were processed

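RNA-seq of 2 control and 2 mutant libraries was analysed from the gene table of each. The authors deposited the raw read count of each gene, the RPKM made from it by gene length and total reads, and the percent of each gene covered, which was not tested. The submitters' processing notes name the build mm9 and SAMtools; the aligner, counter and annotation are not given in the sources used here. Absent genes were given a count of 0. The 10 members and all gene lists were chosen with earlier results of these data known, and the Schwann cell and melanocyte list after the values of Sox10 were seen.

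Counts were tested in R 4.3.3 with edgeR 4.0.16 (quasi-likelihood, robust, TMM factors of 0.966 to 1.03) over the 14123 genes that reached 10 counts in 2 or more libraries, with Benjamini-Hochberg adjustment over all of them and a threshold of 0.05. The test was tried first on counts simulated with the same spread for all genes and both groups. In the data the coefficient of variation between replicates by edgeR was 0.208 in the controls and 0.121 in the mutants. That trial therefore does not measure the error of the test here. Replicates were not repeated reads of 1 library, as chi-square per degree of freedom between their counts was 49.7 in the controls and 24.0 in the mutants. For the controls, this cannot tell separate cultures from separate libraries of 1 culture. Alternatives were DESeq2 1.42.0, RLE factors, no filter, at least 10 counts in every library, limma 3.58.1 on log2(RPKM + 1) and log2(RPKM + 0.1), a block on the replicate number, and each library left out in turn.

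The genes named were all 10 members, Senp6, in each related list the 3 of highest mean RPKM and the 3 of smallest p with any past the threshold, and in each marker list the 2 of highest mean RPKM with any past it; others are said to have been named later. Coordinates are from GENCODE M21 on GRCm38 and promoter sequences from RefSeq GRCm38.p6; the tables hold no coordinates. The number of reads limits Nkx3-2, Ihh and other genes with few reads.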

Additional observations from a re-analysis of the deposited data

How the results depend on the processing

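In 87 of 99 alternative values the log2 fold changes of the 9 tested factors kept their direction and their side of the threshold. The exceptions were as follows, and their cause was not tested. DESeq2 called 1 factor lower (Sox9), and leaving out single libraries gave 0 to 4 factors lower and 0 to 1 higher; the largest numbers came without control replicate 2, where Sox9, Runx1, Runx3 and Mef2c were lower and Sox5 higher. With 1 library left in a group, that library is assumed to vary like the other group. Sox6 turned sign next to 0, with -0.013 by DESeq2 and with RLE factors, -0.0094 without a filter, -0.038 without control replicate 2 and -0.045 without mutant replicate 2, the lowest of the values with 1 library left out (the highest was 0.049). Mef2c turned to 0.49 without control replicate 1 and was -0.82 without control replicate 2.

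Of the medians of the lists, 45 moved by less than the spread and 10 by more. Over all genes, those called higher numbered 434 by DESeq2, 225 without a filter and 96 to 1331 with 1 library left out; those called lower numbered 263, 61 and 47 to 1492. Of the cartilage genes, 15 were called lower by DESeq2, 11 without a filter and 9 to 14 with 1 library left out. For the hypertrophy and mineralization genes these were 2 lower by DESeq2, and 0 to 2 lower and 0 to 2 higher with 1 library left out. For partners and relatives, 2 were called higher by DESeq2 and 2 without a filter, with 0 to 2 higher and 0 to 1 lower when 1 library was left out. For the other skeletal factors, 1 was lower by DESeq2, and 0 to 3 were lower and 0 to 3 higher with 1 library left out.

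The replicate numbers gave no sign of pairing the samples, as the difference between replicates correlated at r = -0.0422 between the groups across genes. This value cannot show whether libraries of the same number were prepared together. In edgeR with this block, the calls were 84 genes higher and 33 lower, 4 cartilage genes among them, and 0 factors.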

Other observations

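Sox10 was read beside other genes of its lineages. A list of 12 Schwann cell and melanocyte genes, drawn up after the values of Sox10 were seen and so without a test, had 10 genes with enough reads, of which 7 had both mutants above both controls, against 28.3% of all tested genes, and 3 overlapped, with a median log2 fold change of 0.63. The summed RPKM was 17.1 and 13.6 in the controls and 17.2 and 25.7 in the mutants, so mutant replicate 1 was next to control replicate 1. Tyr, the enzyme that starts melanin synthesis, had an RPKM of 2.37 and 2.46 in the controls and of 3.05 and 3.95 in the mutants. S100b, found in Schwann cells and in chondrocytes, had 7.72 and 7.40 in the controls and 5.43 and 11.5 in the mutants, which overlapped.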
